A study of Mus musculus with 6 samples.

Results

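The NHERF scaffolds and the ERM proteins were followed in the urogenital ridges of Wt1-/- and wild-type mouse embryos, the ridge being the tissue in which the gonads and the mesonephros form under a coelomic epithelium. Members were all probes whose platform symbol was Slc9a3r1, Slc9a3r2, Pdzk1, Ezr (also written Vil2), Rdx, Msn, Podxl or Nf2, which gave 9 probes of 8 genes among the 20289 probes and 13769 named genes on the array. The members were picked by gene symbol, but the family was selected on the intensities of these same Wt1-/- and wild-type arrays, in which Slc9a3r1 was known to rank among the largest losses. Differences between the genotypes are therefore given for the members as a description, with no p-value, and support nothing by themselves. The knockout group comprised 3 arrays of Mf1 embryos homozygous for a deletion of Wt1, the Wilms tumour gene that encodes a zinc finger transcription factor, and the control group 3 arrays of wild-type Mf1 embryos. Each array's label gives 5 embryos pooled, of which 4 were female and 1 male, at stage E11.5 with 11 to 12 tail somites. The deletion was carried by the whole embryo. Separate pools for the 3 arrays of a group are not stated in the labels, and p-values therefore cover array-to-array spread alone, possibly technical.

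The genotype labels were checked on Wt1, whose brighter probe (2836) was at 14.7 ± 0.788 on the Wt1-/- arrays and 42.3 ± 2.77 on the wild-type arrays (log2 change -1.52 ± 0.08, adjusted p = 1.13e-07). The position of the probe relative to the deletion is not given in the sources used here. Between 20077 and 20099 probes had a value on each array. Correlations across probes, which are not independent replicates, were 0.983 to 0.986 within Wt1-/-, 0.991 to 0.992 within wild type and 0.966 to 0.972 between the genotypes.

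NHERF proteins are adaptors under the apical membrane of epithelia. Their PDZ domains hold the cytoplasmic tails of transporters, channels and receptors, and a tail region of NHERF1 and NHERF2 binds ezrin, radixin and moesin. ERM proteins bind the membrane side through a FERM domain and actin filaments through their other end, and they switch from a folded to an open state when they bind membrane phosphoinositide and are phosphorylated. Together they anchor receptors and shape microvilli, and in the podocytes of the kidney they tie the sialomucin podocalyxin to the cytoskeleton. Merlin, the product of Nf2, shares the FERM domain and restrains growth.

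The largest difference in the family was at Slc9a3r1, which encodes NHERF1. Its probe (13037) had deposited intensities, on an arbitrary linear scale, of 0.559, 0.183 and 0.259 on the Wt1-/- arrays, against 6.51, 6.50 and 6.75 on the wild-type arrays. The 3 knockout arrays all lay far below the 3 wild-type arrays, with knockout array 1 the highest of its group. The means were 0.334 ± 0.199 in Wt1-/- ridges and 6.59 ± 0.144 in wild-type ridges (SD, n = 3 each), with a log2 change at -4.47 ± 0.30 (SE), or 22.1-fold lower. Between single arrays the ratio ran from 11.6 to 36.8. Knockout array 2 lay below the intensity of 0.217 that marks the dim end of the array here, so the size of the fold rests on values near the lower end of the range: on the log2(value + 0.25) scale the change was -3.60, or 12.1-fold. The change ranked 4 from the most negative among 15062 tested probes, and the 500 probes nearest to it in level had a median log2 change of 0.09.

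Slc9a3r2 encodes NHERF2, the close relative of NHERF1 that links podocalyxin to ezrin in podocytes, and it had a pair of probes that did not move together. On the probe designed for transcript NM_023055 (14956), the Wt1-/- arrays had intensities of 2.94, 3.46 and 3.11, against 4.76, 5.35 and 4.71 on the wild-type arrays. The genotypes did not overlap, and the means of 3.17 ± 0.265 in Wt1-/- and 4.94 ± 0.356 in wild type (SD, n = 3 each) gave a log2 change of -0.64 ± 0.09 (SE), or 1.56-fold lower. On the probe for transcript NM_023449 (15088), the Wt1-/- arrays had 3.52, 2.89 and 3.17 and the wild-type arrays 3.21, 3.29 and 3.15. Here the knockout arrays lay on both sides of the wild-type ones, with a log2 change of -0.01 ± 0.09 (SE), and the sign turned under quantile and cyclic loess normalization and without knockout array 2 or wild-type array 2. The positions of the probes within these transcripts were not used here. Pdzk1, a further NHERF family scaffold best known for holding the HDL receptor and transporters in liver, gut and kidney, had intensities of 0.778, 0.829 and 0.952 on the Wt1-/- arrays and 0.988, 1.01 and 0.925 on the wild-type arrays. The genotypes overlapped by 1 array, with a log2 change of -0.20 ± 0.13 (SE).

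**Figure D1:**
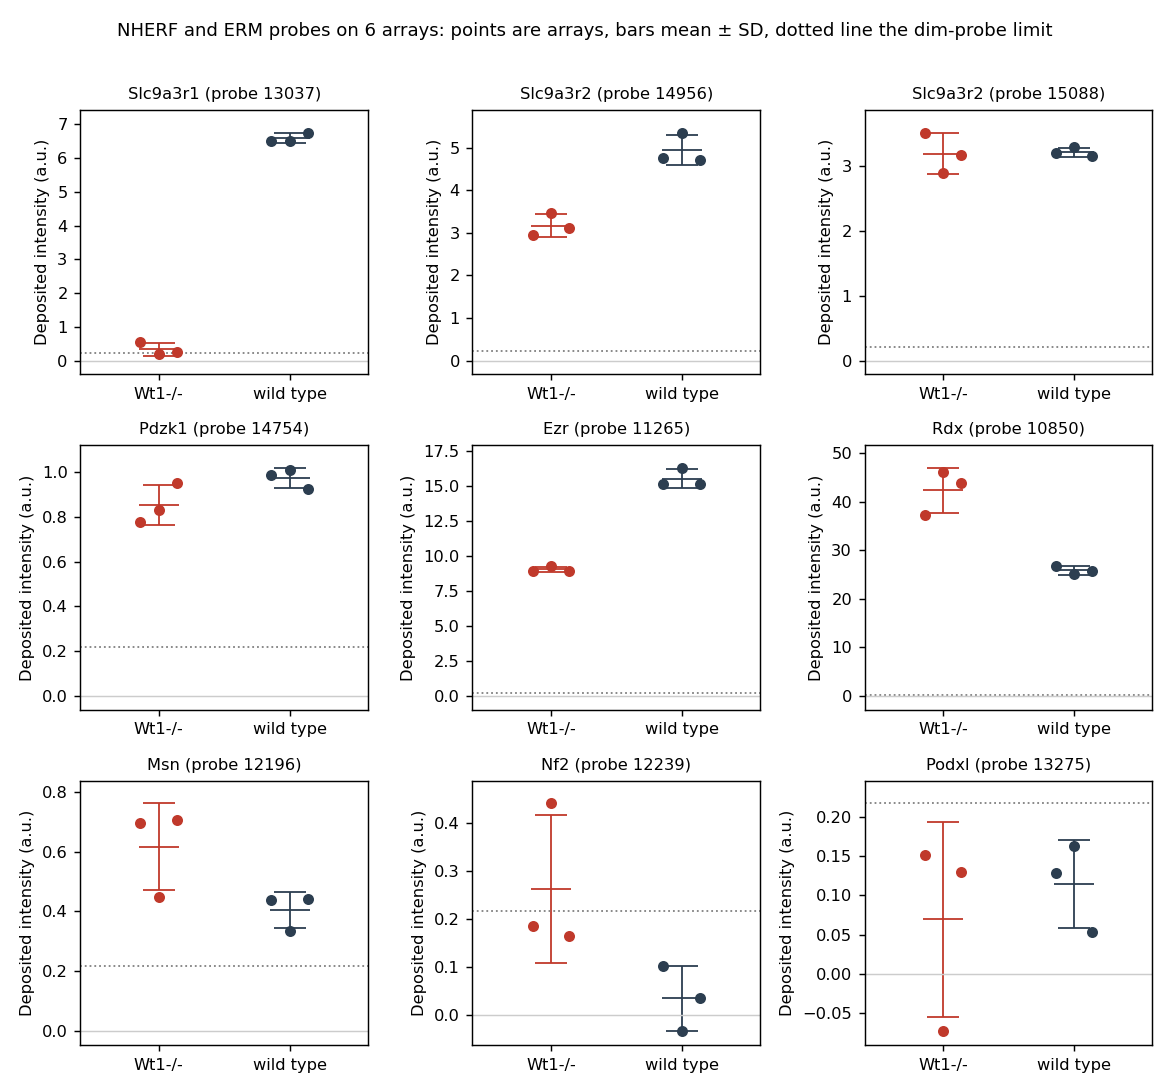
Deposited intensity (arbitrary units, linear axis) of each of the 9 member probes on the 3 Wt1-/- arrays (left, red) and the 3 wild-type arrays (right, blue); points are arrays, bars the mean ± SD, and the dotted line the dim-probe limit of 0.217. Slc9a3r1 lies at 0.183 to 0.559 in Wt1-/- and at 6.50 to 6.75 in wild type, Ezr is lower and Rdx higher in Wt1-/-, and Podxl stays under the dotted line on all 6 arrays.

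The ERM genes differed in opposite directions. Ezr, which encodes ezrin, the ERM protein of epithelial microvilli, had intensities of 8.96, 9.27 and 8.93 on the Wt1-/- arrays, against 15.2, 16.3 and 15.2 on the wild-type arrays. The groups were apart, and the spread was small in both: the means were 9.05 ± 0.190 in Wt1-/- and 15.5 ± 0.656 in wild type (SD, n = 3 each), with a log2 change at -0.78 ± 0.07 (SE), or 1.72-fold lower. Rdx, which encodes radixin, the ERM protein of liver canaliculi and of hair cell stereocilia, had 37.2, 46.0 and 43.8 on the Wt1-/- arrays, against 26.8, 25.1 and 25.7 on the wild-type arrays. All 3 knockout arrays were above all wild-type ones, with means of 42.3 ± 4.60 in Wt1-/- and 25.9 ± 0.886 in wild type (SD, n = 3 each) and a log2 change of 0.71 ± 0.09 (SE), or 1.63-fold higher. The 500 probes nearest to Rdx in level had a median log2 change of 0.22, above the 0.09 of all tested probes, and the change at Rdx was 0.51 under quantile and 0.52 under cyclic loess normalization.

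Msn encodes moesin, the X-linked ERM protein that dominates in endothelial and blood cells. Its probe was dim, at 0.695, 0.449 and 0.705 on the Wt1-/- arrays and 0.438, 0.336 and 0.441 on the wild-type arrays. The lowest knockout array, array 2, was only just above the highest wild-type array, by a ratio of 1.02. The log2 change was 0.59 ± 0.24 (SE), and the probe met the threshold of adjusted p under 0.05 only without knockout array 2, where the log2 change was 0.80. Nf2 and Podxl lay below the dim-probe limit as means over the 6 arrays and were not tested. Nf2, the merlin gene, read 0.185, 0.442 and 0.164 on the Wt1-/- arrays and 0.101, -0.0349 and 0.0355 on the wild-type arrays. The knockout arrays were the higher ones, but 5 of the 6 values were below the limit, so no fold is given, and Nf2 met the threshold only when dim probes were kept in the fit. Podxl, which encodes podocalyxin, read 0.152, -0.0727 and 0.130 on the Wt1-/- arrays and 0.128, 0.163 and 0.0537 on the wild-type arrays. All 6 values were below the limit and the genotypes overlapped, so a difference in podocalyxin transcript was not detectable with this probe.

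Of the 7 member probes that were tested, 4 passed adjusted p under 0.05 in limma, 3 of them lower (Slc9a3r1, Slc9a3r2 on 1 of its probes, Ezr) and 1 higher (Rdx). Over all 15062 tested probes 41.3% passed, 24.1% as higher and 17.2% as lower. This excess of higher calls depended on the scaling. Higher calls were 58.3% of all calls here, 50.7% under quantile and 49.5% under cyclic loess normalization. Knockout and wild-type arrays were fully separated at 5 of the 7 member probes, 3 of them lower and 2 higher, against 52.8% of all tested probes (31.4% higher, 21.4% lower). Since Slc9a3r1 chose the family in this contrast, nothing is read from these counts. The median log2 change was -0.20 over the 7 member probes and 0.09 over all tested probes. Over all tested probes it was 0.03 under quantile and 0.02 under cyclic loess normalization. Apart from Slc9a3r1, the tested members stayed within a factor of 1.72 in either direction.

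**Figure D2:**
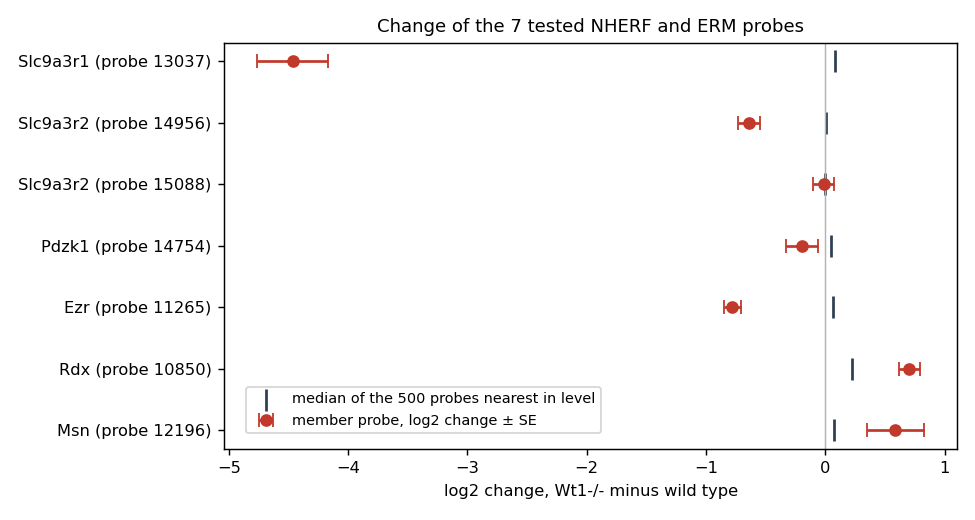
Log2 change in intensity, Wt1-/- minus wild type (horizontal axis), for the 7 tested member probes; red points with bars are the change ± SE, and blue ticks the median change of the 500 probes nearest in level. Slc9a3r1 stands at -4.47, the other members between -0.78 and 0.71, and the tick beside Rdx lies at 0.22.

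The RefSeq promoter table (GRCm38.p6) held windows for 7 of the 8 genes, all except Podxl, 11 windows in all. The 250 bases upstream of the start site are shown for Slc9a3r1, Ezr and Slc9a3r2, the genes of NHERF1, NHERF2 and the linker they bind, which were picked after their values were seen, as a description from which nothing is read about the differences; capitals mark matches to the motifs GGGCGG (the GC box of SP1-type factors) and GCGGGGGCG (a consensus shared by EGR1 and WT1), searched on both strands, in which the second motif can overlap the first. Each is written 5′ to 3′ on the gene's strand.
Slc9a3r1, chr11:115163091-115163340, plus strand: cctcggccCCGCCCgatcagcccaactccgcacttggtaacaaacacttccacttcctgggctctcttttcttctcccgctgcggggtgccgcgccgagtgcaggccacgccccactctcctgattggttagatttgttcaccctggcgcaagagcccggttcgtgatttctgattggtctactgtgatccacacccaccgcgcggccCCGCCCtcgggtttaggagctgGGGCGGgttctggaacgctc
Ezr, chr17:6782781-6783030, minus strand: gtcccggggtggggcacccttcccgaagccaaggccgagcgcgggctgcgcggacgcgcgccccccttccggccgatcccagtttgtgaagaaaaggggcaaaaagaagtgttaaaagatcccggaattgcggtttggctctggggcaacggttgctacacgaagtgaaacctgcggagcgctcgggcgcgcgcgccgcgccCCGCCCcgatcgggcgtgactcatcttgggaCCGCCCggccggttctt
Slc9a3r2, chr17:24650306-24650555, minus strand: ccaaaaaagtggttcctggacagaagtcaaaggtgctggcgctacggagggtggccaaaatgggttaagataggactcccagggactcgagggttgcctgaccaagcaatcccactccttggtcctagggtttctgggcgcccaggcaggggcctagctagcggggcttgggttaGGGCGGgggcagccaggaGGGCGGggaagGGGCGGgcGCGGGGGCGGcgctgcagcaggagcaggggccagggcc

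The GCGGGGGCG motif was found in 1 of the 11 member windows, the Slc9a3r2 window shown, from -38 to -30 relative to the start site, where it overlaps a GC box. The other Slc9a3r2 window (chr17:24644958-24645207) held neither this motif nor a GC box, and which window belongs to the transcript of which probe was not tested. Among all 32851 windows of the table, 2.57% held it. The related WT1 element core GCGTGGGAG was in none of the member windows and in 0.405% of all windows. GC boxes were found in 6 of the 11 windows, with 3 in the Slc9a3r1 window, 2 in the Ezr window and 4 in the Slc9a3r2 window shown, and 32.7% of all windows held at least 1. The Rdx windows held none of these motifs, while the Msn window held 3 GC boxes. The G+C content ran from 33.6%, in an Nf2 window, to 71.6%, in the Msn window, over the 11 member windows, with 62.8% for Slc9a3r1, 67.2% for Ezr and 66.4% for the Slc9a3r2 window shown, and the median over all windows was 52.4%. A match to letters is a description of the sequence and not a binding site.

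The genes whose pattern was most like that of Slc9a3r1 were sought by the Euclidean distance between log2 profiles, each centred on its own mean over the 6 arrays, among 11867 tested probes with values on all arrays and a single gene symbol. The nearest was Akr1cl, an aldo-keto reductase gene, at a distance of 0.338, followed by Cd59a, an inhibitor of complement lysis, at 0.660. Kctd14, at 1.27, Ptprv, a receptor-type phosphatase gene, at 1.73, and Tulp2, at 1.88, came next. In Akr1cl the intensities were 0.272, 0.0524 and 0.148 on the Wt1-/- arrays, against 3.28, 3.19 and 2.87 on the wild-type arrays. As with Slc9a3r1, knockout array 1 was the highest and array 2 the lowest of its group in Akr1cl and Cd59a. Such an order is part of what the distance selects on these same arrays, so nothing is read from it. The Akr1cl value on knockout array 2 was also below 0.0811, to which lower values were raised before log2 was taken. The measure is a description over 6 arrays in 2 groups, in which a large loss alone brings genes close, and 2 of the 3 knockout values lay below the dim-probe limit for both Akr1cl and Tulp2.

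**Figure D3:**
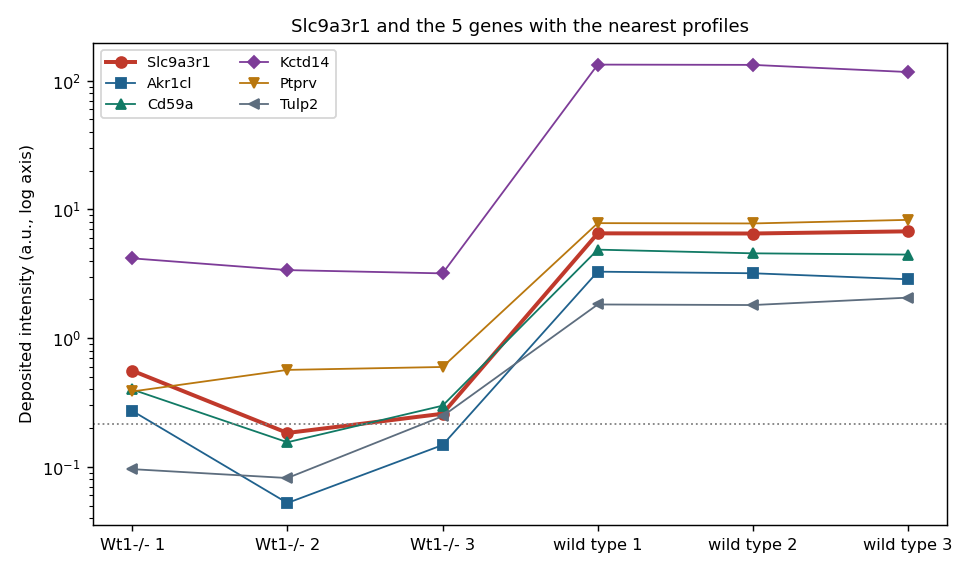
Deposited intensity (arbitrary units, log axis) of Slc9a3r1 (thick red line) and of the 5 genes with the nearest centred log2 profiles, over the 3 Wt1-/- arrays (left) and the 3 wild-type arrays (right); the dotted line is the dim-probe limit of 0.217. All 6 genes are lower on every Wt1-/- array than on any wild-type array, and knockout array 1 is the highest of its group for Slc9a3r1, Akr1cl, Cd59a and Kctd14.

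Genes around the family were counted in 7 lists. Each gene was represented by its brightest tested probe and every adjusted p is limma's over all tested probes. The share of tested genes that passed ran from 33.3% to 53.8% over these lists, beside 41.3% of all tested probes (24.1% higher, 17.2% lower), so the counts are a description and nothing particular to a list is read from them. Among proteins known to bind NHERF scaffolds or to work with them, 6 of 25 tested genes rose and 5 fell, with a list median of 0.10 beside the 0.09 of all tested probes. Scarb1, the HDL receptor held by PDZK1 in liver, fell to 1.26 ± 0.142 in Wt1-/- ridges, against 3.04 ± 0.0279 in wild-type ridges (SD, n = 3 each; log2 change -1.28 ± 0.10, SE, adjusted p = 3.18e-06). Pth1r, the parathyroid hormone receptor whose signalling NHERF1 tunes in kidney, rose to 66.9 ± 4.95 in Wt1-/-, against 34.2 ± 1.20 in wild type (log2 change 0.97 ± 0.08, adjusted p = 2.95e-06). Slc15a2, a peptide transporter of kidney, rose to 0.832 ± 0.253, against 0.248 ± 0.0239 in wild type (log2 change 1.71 ± 0.26, adjusted p = 0.000257). The others past the threshold, named after their values were seen, were Pdgfra, Lpar2, Plcb3 and Fzd4, with log2 changes of 0.66, 0.54, 0.30 and 0.55, and Yap1, Grk6, Ctnnb1 and Slc22a5, at -0.53, -0.75, -0.38 and -0.40. The calls of Scarb1, Pth1r, Pdgfra, Lpar2, Yap1 and Ctnnb1 were kept in all 14 alternative settings, whereas that of Fzd4 was kept in 5. The call of Slc22a5 was lost without any 1 of the wild-type arrays, that of Plcb3 without wild-type array 1 or 3 and that of Grk6 without wild-type array 2. Without wild-type array 2, the number that fell was 3.

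Of 11 membrane proteins that ERM proteins bind, 3 rose and 1 fell (list median 0.31). Pdpn, which encodes podoplanin, a mucin-type glycoprotein of podocytes and mesothelium, rose to 11.4 ± 1.43 in Wt1-/-, against 7.35 ± 0.293 in wild type (log2 change 0.62 ± 0.09, adjusted p = 0.000298). Icam2, an endothelial adhesion molecule, fell to 1.95 ± 0.242, against 2.77 ± 0.184 (log2 change -0.51 ± 0.11, adjusted p = 0.00239). Ceacam1, an adhesion molecule of epithelia, was at least 1.70-fold higher (adjusted p = 0.0291), since its wild-type mean lay below the dim-probe limit, and its call was kept in 8 of 14 alternatives, ending among others under quantile and cyclic loess normalization and without knockout array 3 or wild-type array 2 or 3. The syndecan gene Sdc2, named after its values were seen, rose with a log2 change of 0.38 ± 0.10, a call lost without wild-type array 1. Cd34, the sialomucin related to podocalyxin, was at 0.870 ± 0.102 in Wt1-/- and 1.09 ± 0.107 in wild type and did not pass (log2 change -0.33 ± 0.14).

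Among regulators that switch ERM proteins on or off, 3 of 13 rose and 4 fell (list median -0.16). Ppp1r12a, the myosin phosphatase subunit that also acts on moesin, fell to 0.767 ± 0.121 in Wt1-/-, against 1.36 ± 0.0728 in wild type (log2 change -0.83 ± 0.14, adjusted p = 0.000637). Slk, a kinase that phosphorylates ERM proteins, fell to 0.324 ± 0.0708, against 0.618 ± 0.0585 (log2 change -0.95 ± 0.24, adjusted p = 0.00827), while its relative Stk10 was at 7.46 ± 0.397 in Wt1-/- and 7.18 ± 0.265 in wild type and did not pass. Pip5k1c, a kinase that makes the phosphoinositide ERM proteins bind, rose to 0.775 ± 0.139, against 0.436 ± 0.0434 (log2 change 0.82 ± 0.19, adjusted p = 0.00546). Its relative Pip5k1a had a log2 change of -0.48, and Map4k4, Rhoa and Prkcq had changes of -0.66, 0.30 and 0.50, all past the threshold and chosen afterwards by their values. The call of Prkcq was kept in 7 of 14 alternatives, those of Ppp1r12a, Pip5k1a, Map4k4 and Rhoa in all 14, and that of Slk ended without wild-type array 1.

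The merlin and Hippo list, a growth-restraining kinase pathway that ends on the coactivators YAP and TAZ, had 3 of 15 genes higher and 2 lower (list median -0.19). Yap1 fell to 5.46 ± 0.609 in Wt1-/-, against 7.87 ± 0.361 in wild type (log2 change -0.53 ± 0.09, adjusted p = 0.000676). Among the TEAD factors that YAP works through, Tead4 rose to 1.48 ± 0.0569, against 0.952 ± 0.101 (log2 change 0.64 ± 0.12, adjusted p = 0.00111), and Tead2 fell to 23.7 ± 5.69, against 31.1 ± 1.59 (log2 change -0.42 ± 0.15, adjusted p = 0.0360), a call kept in 9 of 14 alternatives. Tead1 and Mob1a, a kinase adaptor, were the other higher genes, with changes of 0.39 and 0.27, and neither call was kept under quantile normalization. The YAP target genes Ccn2 and Ccn1 had log2 changes of -0.20 ± 0.09 and -0.19 ± 0.08 and did not pass. The number that fell was 4 without knockout array 1 or under cyclic loess normalization, and 1 when any of the wild-type arrays was left out.

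Among other proteins with a FERM domain, 8 of 30 rose and 4 fell (list median 0.06). Fermt3, the integrin activator kindlin-3 of blood cells, rose to 12.7 ± 1.41 in Wt1-/-, against 5.46 ± 0.233 in wild type (log2 change 1.21 ± 0.09, adjusted p = 2.01e-06). Tln2, a talin gene, rose to 0.600 ± 0.153, against 0.276 ± 0.102 (log2 change 1.15 ± 0.31, adjusted p = 0.0117), without a call when knockout array 2 was left out. Myo7a, a myosin of stereocilia, fell to 0.326 ± 0.0483, against 0.653 ± 0.136 (log2 change -0.99 ± 0.24, adjusted p = 0.00658), without a call when wild-type array 1 was left out. The other 3 that fell, named after their values were seen, were Myo10, Frmd8 and Farp2, at -0.56, -0.43 and -0.34, and the call of Farp2 was kept in 6 of 14 alternatives. The others that rose, likewise named afterwards, were Ptk2b, Tyk2, Epb41l3, Jak3, Jak1 and Snx17. Their log2 changes were 0.69, 0.42, 0.37, 0.34, 0.33 and 0.28. The calls of Jak1 and Snx17 were kept in 7 and 10 of 14 alternatives, those of the other genes in this group in all 14. The number that fell was 8 without knockout array 1 and 2 without wild-type array 1.

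Of 13 genes for the actin core of microvilli, 2 rose and 3 fell (list median 0.03). Baiap2l1, which binds the membrane of growing microvilli, fell to 0.267 ± 0.0637 in Wt1-/-, against 0.744 ± 0.0493 in wild type (log2 change -1.51 ± 0.25, adjusted p = 0.000477). The actin bundler gene Lcp1 fell to 0.286 ± 0.103, against 0.591 ± 0.135 (log2 change -1.08 ± 0.31, adjusted p = 0.0142), without a call when wild-type array 1 or 2 was left out, and its relative Pls3, chosen afterwards, had a log2 change of -0.39 ± 0.07. Ush1c, the scaffold harmonin, rose to 1.66 ± 0.178, against 1.07 ± 0.0315 (log2 change 0.63 ± 0.11, adjusted p = 0.000894), and Eps8 rose by 0.34 ± 0.12, a call kept in 9 of 14 alternatives. Vil1, which encodes villin, was at 0.571 ± 0.0414 in Wt1-/- and 0.439 ± 0.104 in wild type and did not pass. The list of apical polarity and tight junction genes had 8 of 28 higher and 6 lower (list median 0.01). F11r, the junctional adhesion molecule A gene, fell to 0.358 ± 0.0724, against 1.06 ± 0.149 (log2 change -1.57 ± 0.20, adjusted p = 9.76e-05). Mpp5, which encodes the Crumbs complex scaffold PALS1, fell to 0.309 ± 0.130, against 0.612 ± 0.050 (log2 change -1.06 ± 0.29, adjusted p = 0.0129), a call lost without wild-type array 1 or 2. Prkci, an atypical kinase of the polarity complex, fell to 2.71 ± 0.0945, against 4.32 ± 0.231 (log2 change -0.67 ± 0.08, adjusted p = 5.78e-05). Its relative Prkcz rose, with a log2 change of 0.47 ± 0.10. The others that rose, named after their values were seen, were Dlg3, Scrib, Cldn4, Cldn3, Lin7c, Llgl2 and Rac1. Their log2 changes were 0.58, 0.50, 0.40, 0.38, 0.38, 0.34 and 0.25. The calls of Lin7c and Rac1 were kept in 12 and 7 of 14 alternatives, the other higher calls in all 14. At Rac1 the sign of the change turned under quantile normalization. Llgl1, Pard3b and Cdc42, likewise named afterwards, were the others that fell, with log2 changes of -0.51, -0.41 and -0.27. Their calls were kept in 14, 12 and 11 of 14 alternatives. Without wild-type array 2, only 3 of these 28 fell.

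**Figure D4:**
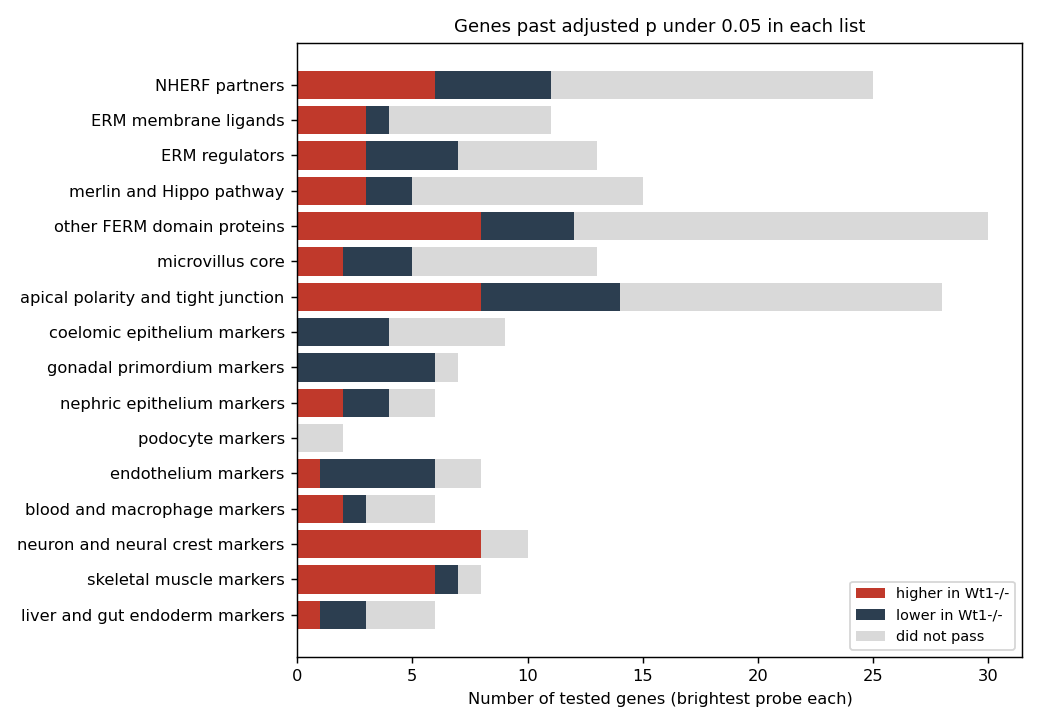
Number of tested genes (horizontal axis, brightest probe each) in the 7 lists around the NHERF and ERM family and the 9 cell type marker lists that were higher in Wt1-/- (red), lower in Wt1-/- (blue) or did not pass adjusted p under 0.05 (grey). Among NHERF partners 6 were higher and 5 lower of 25, while 6 of 7 gonadal primordium markers were lower and 8 of 10 neuronal markers higher.

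Cell type markers were counted on the same arrays in 9 lists. The share of tested genes that passed ran from 0% to 87.5% over these lists, beside 41.3% of all tested probes. It was 44.4% for coelomic epithelium and 50% for both the blood and the liver markers. Nothing particular to those cell types is read from their counts. Of the coelomic epithelium markers 4 of 9 fell, Muc16, Aldh1a1, Krt8 and Krt19, and none rose past the threshold, while 4 of the others, Lrrn4, Bnc1, Upk1b and Krt18, had positive log2 changes of 0.43, 0.20, 0.13 and 0.07 that did not pass. Their summed intensity was 43.0 to 44.1 in Wt1-/- and 60.1 to 63.2 in wild type. Without Aldh1a1, which made up most of that difference, it was 40.8 to 41.8 in Wt1-/- and 43.9 to 45.4 in wild type. Krt18 was the brightest gene in the second sum, at 28.5 in Wt1-/- and 27.2 in wild type, and such a sum mostly follows its brightest gene. Muc16 was at least 8.54-fold lower, and Krt8 and Krt19 had log2 changes of -1.44 and -0.71. Of the gonadal primordium markers 6 of 7 fell, with sums of 10.6 to 11.3 in Wt1-/- and 48.8 to 51.5 in wild type, or 10.1 to 10.8 in Wt1-/- and 18.5 to 20.1 in wild type without Amhr2, the receptor gene for anti-Müllerian hormone. The gene left out of a sum, here and in the lists that follow, is the one whose level differed most, an alternative chosen after seeing the data. Endothelial markers, of which 5 of 8 fell and 1 rose, summed to 79.0 to 79.2 in Wt1-/- and 80.7 to 82.9 in wild type, or 40.2 to 42.9 in Wt1-/- and 50.2 to 50.6 in wild type without Kdr. Kdr was the 1 that rose, a call lost under quantile and cyclic loess normalization and without wild-type array 2. Nephric epithelium markers split, with 2 of 6 higher and 2 lower, blood and macrophage markers had 2 of 6 higher and 1 lower, and liver and gut endoderm markers 1 of 6 higher and 2 lower. The nephric sums were 38.7 to 42.5 in Wt1-/- and 35.1 to 37.2 in wild type. Without Gata3 their order turned, at 23.1 to 24.3 in Wt1-/- and 25.5 to 27.7 in wild type. Blood sums overlapped with and without Aif1. Liver and gut sums overlapped, and without Ttr were 5.98 to 6.86 in Wt1-/- and 9.36 to 9.85 in wild type. The calls of Epcam (nephric, lower) and Tyrobp (macrophage, higher) were kept in 10 and 8 of 14 alternatives. Neuronal markers rose in 8 of 10, with sums of 67.1 to 69.9 in Wt1-/- and 35.4 to 35.9 in wild type, or 54.5 to 58.7 in Wt1-/- and 31.4 to 32.3 in wild type without Dcx. Of 8 skeletal muscle markers 6 rose and 1, Des, fell. Their sums were 53.6 to 59.6 in Wt1-/- and 47.1 to 50.3 in wild type. Without Tnnc2 the muscle sums overlapped, at 46.6 to 53.1 in Wt1-/- and 46.8 to 49.9 in wild type. The 2 podocyte markers tested, Synpo and Kirrel, did not pass, and Nphs1 was under the dim-probe limit. The part of these shifts in the values of Slc9a3r1, Ezr and the other members was not tested, and in RNA from whole ridges fewer cells of a type and less RNA per cell cannot be told apart.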

How the data were processed

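Biotin-labelled target from total RNA was hybridised to CodeLink arrays, 1 colour each, per the labels' protocols. The authors deposited linear intensities per spot, with a median of 0.956 to 0.966 on every array. Software, background correction and quality flags: not given in the sources used here. Arrays have no read depth, so their number limits the precision. Values under the 5th percentile of positive values (0.0811) were set to it and log2 was taken, with no further scaling because the array medians differed by 0.0153 on the log2 scale. Probes with at least 2 values per genotype and a mean above the 25th percentile of probe means (0.217, the dim-probe limit) were tested, 15062 in all, with limma 3.58.1 in R 4.3.3 (lmFit, eBayes with an intensity trend, genotype as the only term). P-values were two-sided and adjusted by the Benjamini-Hochberg method. The fit was run on simulated arrays with independent noise and equal spread in both genotypes, as a check of the code. This check is no support for the calls made here. A fold whose lower mean was under the dim-probe limit is a bound set against that limit. SEs are those of the moderated fit.

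Gene symbols came from the platform annotation held by GEO, which gave 1 symbol for 15120 probes, several for 38 and none for 5131, and were updated through a RefSeq gene table by Entrez identifier; 56 named probes found no match. No probe was named from several symbols. Members and lists were chosen with earlier results of these data known. Named genes are all members, and from each list the 3 genes with the largest change among those past the threshold (the 2 brightest where fewer than 2 passed), other genes being marked as named after their values were seen; genes given as not passing were likewise chosen afterwards. Yap1, Wwtr1 and Frmd6 stand in 2 lists each. The replicate numbers were checked for pairing: deviations of same-numbered arrays from their group means correlated at -0.0208 to 0.000489, so the numbers were not taken as pairs.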

Additional observations from a re-analysis of the deposited data

How the results depend on the processing

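The 6221 probes called, of 15062 tested, became 6230 and 6282 under other floors. Without a dim-probe filter 5890 of 20088 tested probes were called, and among probes above the median 5536 of 10035. The share that passed, 41.3% in the main fit, therefore depends on the filter. The count was 5368 without a variance trend, and 5997 and 5998 under quantile and cyclic loess normalization. With each array left out in turn it was 4790 to 7317. With the replicate block 6019 were called, and the block changed no call of a member. The count of member probes called was 4 in 12 of 14 alternatives and 5 in the other two, without the dim-probe filter (Nf2 added) and without knockout array 2 (Msn added). The change at Slc9a3r1 ran from -4.92 (without knockout array 1) to -3.60, that at Ezr from -0.87 to -0.74, that at Rdx from 0.51 to 0.80, and that at the lower Slc9a3r2 probe from -0.71 to -0.58. Of 480 list counts recomputed, 41 moved by more than 1.5 times, all of them counts of at most 8 and, in the marker lists, of 0 to 2. Without detection flags, values near 0.217 cannot be told from background, which limits Slc9a3r1 in the knockout, Msn, Nf2 and Podxl.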
